A study of Caenorhabditis elegans with 11 samples.

Results

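Young wild-type worms of this series fell into libraries with many and with few sperm transcripts, and the split cut across the bacterial diets of the study. The comparison set 2 sperm-rich libraries, early tnaA replicate 2 and early K12 replicate 3, against 3 sperm-poor libraries, early tnaA replicate 3 and early K12 replicates 1 and 2. These are the 5 early libraries among 11 in all. The sets were chosen by the level of sperm transcripts in these same libraries, so every difference between them is described with its size and standard error and carries no test. No label separates the sperm-rich from the sperm-poor samples.

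RNA came from pools of about 150 whole adults of Caenorhabditis elegans, kept at 16 °C on their bacteria from the embryo onward. All early worms were N2, the wild-type strain, with an age label of 3 days, whereas the design text calls them adults of 2 days. The tnaA worms ate an Escherichia coli K12 mutant that lacks tryptophanase and makes no indole, and the K12 worms ate the indole-producing parent. The 6 late libraries, with an age of 12 days, were 2 of ahr-1(ia3) worms on K12, 2 of N2 on K12 and 2 of N2 on tnaA bacteria. The ia3 mutation removes the function of ahr-1, the aryl hydrocarbon receptor gene. Each library was a separate biological replicate per the labels.

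A C. elegans hermaphrodite makes its sperm in the last larval stage, stores them in the spermathecae and then switches its germline to oocytes for the rest of its life. Sperm are packed with major sperm protein (MSP), which drives their crawling and is also released as a signal that triggers oocyte maturation and sheath contraction. Transcription stops before sperm are complete, so most sperm transcripts are made in spermatocytes. In pooled whole animals, more cells of a type and more RNA per cell cannot be told apart.

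Depth did not separate the sets. In units of 1e6 reads, gene counts were 15.2 and 14.7 in the sperm-rich libraries and 14.9, 14.4 and 14.8 in the sperm-poor ones. A single read equalled 0.0659 to 0.0696 counts per 1e6 reads (CPM). A read was found for 17323 and 17562 genes in the sperm-rich libraries, against 16780, 17046 and 16934 in the sperm-poor ones. Reads outside genes made up 7.07 and 6.14% in the sperm-rich and 6.95, 7.19 and 7.16% in the sperm-poor libraries. In a principal component analysis of the early libraries, the first component held 47.1% of the variance and placed the sperm-rich libraries at -34.9 and -37.3, early K12 replicate 1 at 4.83, and early tnaA replicate 3 and early K12 replicate 2 at 27.9 and 39.6. On this component early K12 replicate 1 was thus the sperm-poor library nearest to the sperm-rich ones. On the third component, with 15.4% of the variance, it stood apart at 34.1, with the other early libraries at -19.2 to -2.27.

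MSP genes showed the split on which the sets were selected. The summed level of the 31 MSP genes was 304 and 263 CPM in the sperm-rich libraries (tnaA 2, then K12 3), against 68.0, 85.8 and 25.6 CPM in the sperm-poor libraries (tnaA 3, then K12 1 and K12 2). The 263 CPM of early K12 replicate 3 and the 85.8 CPM of early K12 replicate 1 are the values just inside and just outside the sperm-rich set. Of 28 MSP genes that passed the filter on low counts, 28 were counted as higher, with a median log2 difference of 2.25. A gene was counted when its difference within bacterial strain was at least 2-fold and the CPM of the sperm-rich and sperm-poor libraries did not overlap. By that rule 740 of 15133 genes, 4.89%, were higher in the sperm-rich libraries and 139, 0.919%, were lower.

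**Figure D1:**
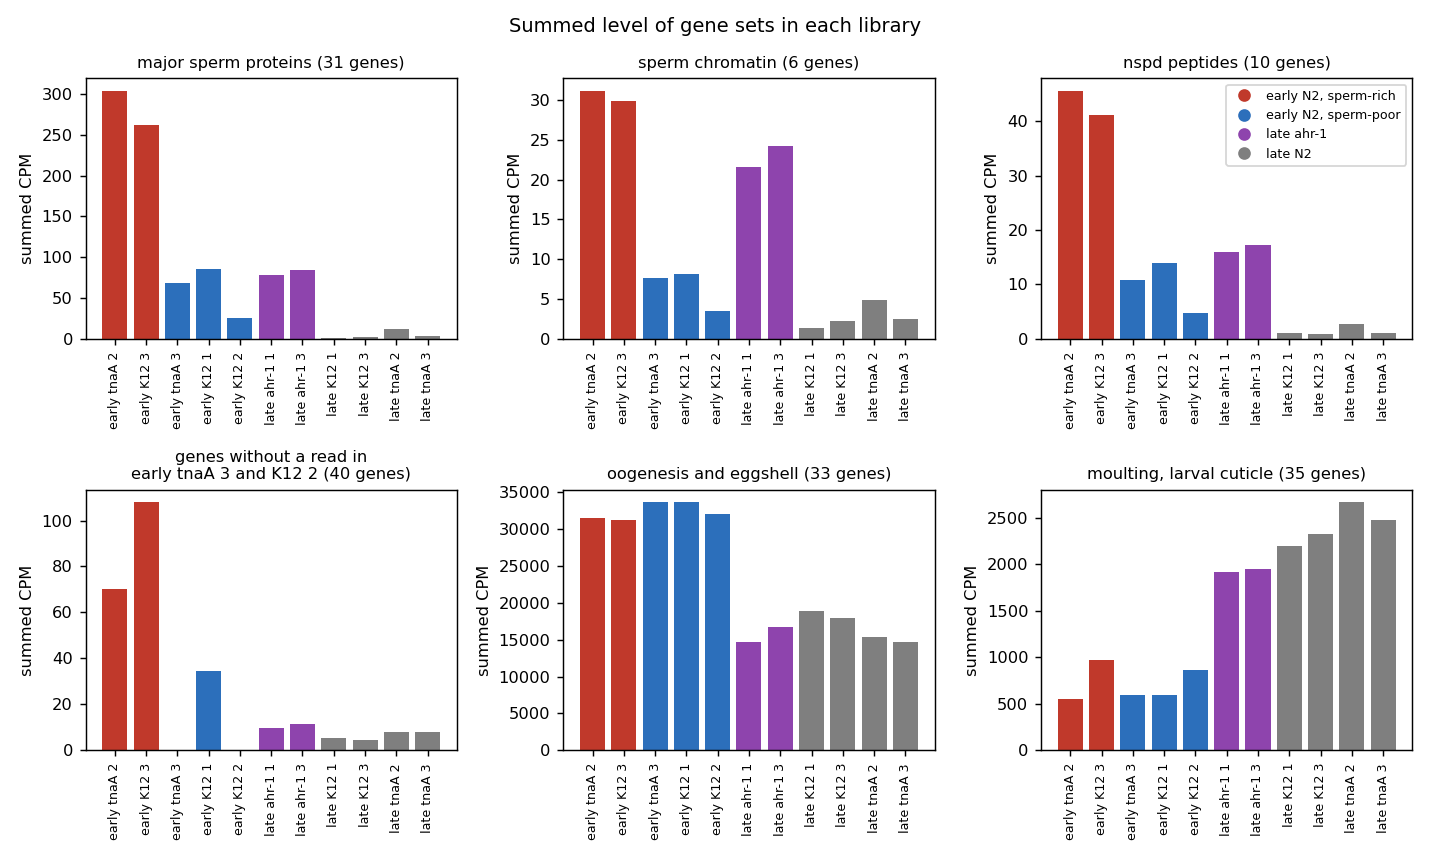
Summed CPM (vertical axes, linear from 0) of 6 gene sets in each of the 11 libraries, 1 bar a library, with early sperm-rich libraries first, then early sperm-poor, late ahr-1 and late N2. MSP, sperm chromatin and nspd transcripts were highest in both sperm-rich libraries and higher in late ahr-1 than in late N2 libraries, with the late ahr-1 MSP sums of 78.1 and 84.8 CPM inside the range of the early sperm-poor libraries, the 40 genes without a read in early tnaA 3 and early K12 2 were highest in the sperm-rich libraries and early K12 1, oogenesis transcripts were near level in the early libraries, and moulting transcripts stood highest among the early libraries in K12 3 and K12 2.

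The most abundant MSP genes differed by about the same amount. Transcripts of msp-81 stood at 19.7 and 15.6 CPM in the sperm-rich libraries, against 3.92, 5.50 and 2.48 CPM in the sperm-poor ones, a log2 difference of 2.12 ± 0.33 (± SE here and below). For msp-36 the levels were 16.7 and 14.2 CPM in the sperm-rich libraries and 4.41, 4.08 and 0.961 CPM in the sperm-poor libraries (2.24 ± 0.33). In both genes each sperm-rich library exceeded each sperm-poor library, and the sperm-poor libraries held different levels among themselves, with K12 2 lowest. MSP genes are close copies of each other, and no source states how reads shared between copies were counted, which leaves values of single members uncertain. Relatives of MSP with an MSP domain or a role in its fibres followed, with 9 of 10 tested members counted as higher and a median of 2.24. Among them msd-4 had 13 and 9.65 CPM in the sperm-rich libraries and 3.26, 3.08 and 1.68 CPM in the sperm-poor ones (1.99 ± 0.30).

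Genes for other parts of the sperm cell were higher to a like degree. Of 6 sperm chromatin genes, 6 were counted as higher, with a median of 2.26. The sperm-specific chromatin gene C04G2.8 (spch-1 in current annotation) stood at 11.2 and 11.8 CPM in the sperm-rich libraries, against 1.71, 3.17 and 0.881 CPM in the sperm-poor ones (2.61 ± 0.38). Of 6 tested sperm kinases and phosphatases, 5 were counted, among them the PP1 phosphatase genes gsp-3 and gsp-4, which act in sperm meiosis and motility. The gsp-3 levels were 6.59 and 8.72 CPM in the sperm-rich libraries and 1.31, 2.00 and 0.561 CPM in the sperm-poor libraries (2.61 ± 0.40), and the difference for gsp-4 was 2.85 ± 0.41. All 9 tested nspd genes, which code for small nematode-specific peptides, were counted, with a median of 2.18.

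Of 5 genes of spermatogenesis Argonautes and translation, 4 were counted as higher. The Argonaute genes alg-3 and alg-4, which act with small RNAs made against spermatogenesis transcripts, were higher by 2.33 ± 0.42 and 3.07 ± 0.33 on the log2 scale. The alg-4 levels were 5.66 and 5.91 CPM in the sperm-rich libraries, against 0.408, 1.25 and 0.481 CPM in the sperm-poor ones. For 3 spermatogenesis genes, chosen after their values were seen, the difference was small. They do not all come from outside the sperm lists, since cpb-1 is the member of this list that was not counted. The transcription factor gene spe-44, which switches on many sperm genes, stood at 18.1 and 19.6 CPM in the sperm-rich libraries and 19, 18.4 and 17.3 CPM in the sperm-poor libraries (0.05 ± 0.13). The CPEB gene cpb-1, needed for spermatocyte meiosis, had a difference of -0.01 ± 0.08, and the casein kinase gene spe-6 one of 0.34 ± 0.22, with 4.96 and 5.37 CPM in the sperm-rich libraries and 4.49, 4.08 and 3.61 CPM, without overlap, in the sperm-poor ones. The CPEB gene cpb-2, in contrast to cpb-1, was counted (1.87 ± 0.39). Of 19 germline sex determination genes, 0 were counted in either direction, with a median of -0.04. With 4.89% of all genes tested counted higher and 0.919% lower, a 0 among 19 is no result about the list. Without a minimum fold, 4 of the 19 were lower without overlap, against 17.8% of all genes tested. The translational repressor gene gld-1 had 1027 and 983 CPM in the sperm-rich libraries and 1072, 1081 and 1036 CPM in the sperm-poor ones.

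Genes for sperm organelles and for fertilization were mixed. Of 10 tested genes for assembly of the fibrous body-membranous organelles, 4 were counted as higher and the median was 0.75. The gene F32A11.3 (spe-18 in current annotation) had 5.97 and 7.31 CPM in the sperm-rich libraries and 0.979, 1.58 and 1.52 CPM in the sperm-poor ones (2.35 ± 0.26). For fer-1, the ferlin gene whose product fuses these organelles with the plasma membrane, the levels were 2.64 and 3.89 CPM in the sperm-rich libraries and 0.489, 1.17 and 1.44 CPM in the sperm-poor ones (1.79 ± 0.26). The same gene stood at 10.4 to 12.2 CPM in all 6 late libraries, above every early one. Of 5 tested genes for sperm-egg interaction and paternal factors, 2 were counted, among them the paternal-effect gene spe-11 (2.53 ± 0.48). The second, K12B6.2, had 11 reads in the sperm-rich libraries and 0 in the sperm-poor ones, which is at least 5.23-fold higher when 3 counts over the sperm-poor group are taken as the floor.

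Most of the counted genes were outside the sperm lists. Of the 740 higher genes, 67 were members of the 9 sperm lists and 673 were not, and 530 are known only by a sequence name. Levels were low, with 83 genes averaging 5 CPM or more in the sperm-rich libraries, 382 between 1 and 5 CPM and 275 under 1 CPM. Without early tnaA replicate 2, when 1 sperm-rich library remained, 1276 genes were higher and 350 lower. Over genes averaging at least 5 CPM across all libraries the count was 19 higher and 7 lower, without a filter on low counts 1220 and 313, and with the early libraries fitted alone 495 and 15.

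Of the 14 named genes outside the lists that averaged at least 5 CPM in the sperm-rich libraries, 5 belong to sperm-specific genes or families. The 4 ssq genes, a sperm-specific family, were all higher. For ssq-4 the levels were 28.1 and 26.8 CPM in the sperm-rich libraries, against 3.92, 6.08 and 1.92 CPM in the sperm-poor libraries (2.79 ± 0.31), while ssq-3, ssq-2 and ssq-1 differed by 2.55 ± 0.46, 2.21 ± 0.26 and 1.87 ± 0.22. The sperm-specific gene sss-1 differed by 2.48 ± 0.38, and gipc-1 and gipc-2, which code for PDZ-domain proteins of the GIPC family, by 2.52 ± 0.30 and 2.47 ± 0.40.

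A few genes that code for enzymes, transporters and a cytochrome c were higher with them. The cytochrome c gene cyc-2.2 had 5.19 and 5.99 CPM in the sperm-rich libraries and 0.816, 0.750 and 0.481 CPM in the sperm-poor ones (3.02 ± 0.36). It was the only counted gene among 37 of the respiratory chain and ATP synthase, whose median was -0.08. Over all genes tested 4.89% were counted higher. The glutamine synthetase gene gln-2 (2.77 ± 0.34), the SLC6-family transporter gene snf-5 (2.14 ± 0.29), the P-type ATPase gene catp-4 (1.60 ± 0.30) and the cyclophilin gene cyn-2 (1.12 ± 0.27) were counted as well. Gene classes with at least 8 tested members and at least 25% of them counted in 1 direction were msp, nspd, ssp (7 of 8), spe (3 of 12), wht (3 of 8) and scl (2 of 8).

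**Figure D2:**
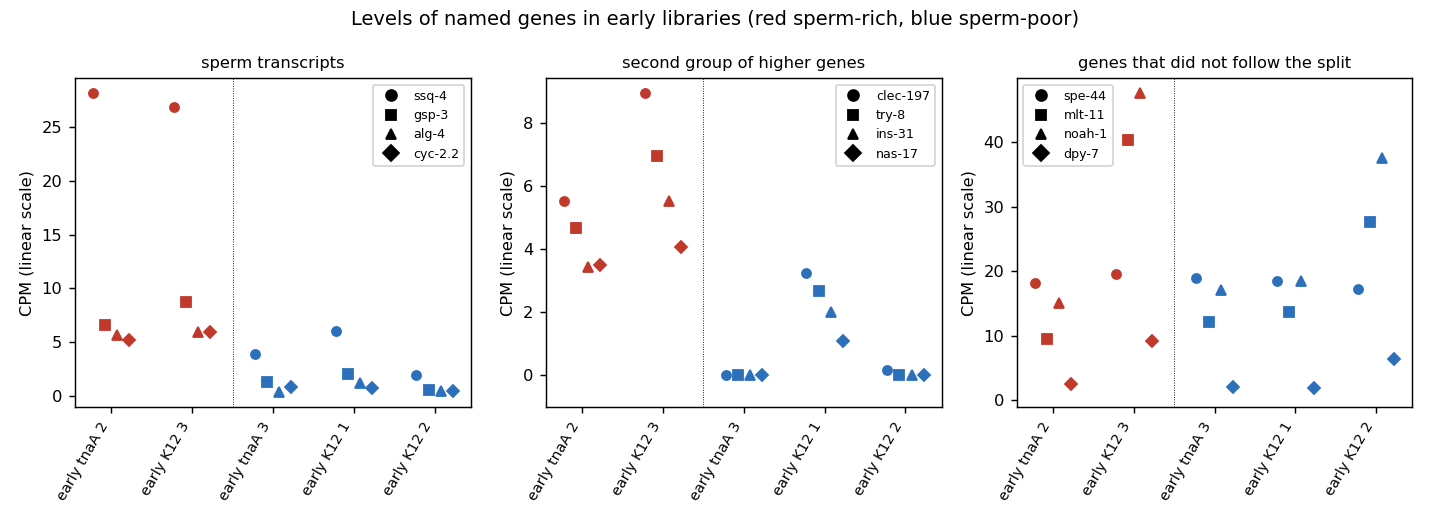
CPM (vertical axes, linear) of 12 named genes in the 5 early libraries, 1 point a library and gene, with sperm-rich libraries in red left of sperm-poor ones in blue. The sperm genes were low in all 3 sperm-poor libraries, whereas clec-197, try-8, ins-31 and nas-17 were at or near 0 in tnaA 3 and K12 2 and at intermediate levels in K12 1, and the genes of the third panel did not separate the sets.

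A second group of the higher genes, described after their values were seen, had at most a trace of reads in early tnaA 3 and early K12 2. The C-type lectin gene clec-197 stood at 5.50 and 8.95 CPM in the sperm-rich libraries, against 0, 3.25 and 0.160 CPM in tnaA 3, K12 1 and K12 2 (3.03 ± 0.66). The trypsin-like protease gene try-8 had 4.65 and 6.93 CPM in the sperm-rich libraries and 0, 2.67 and 0 CPM in the sperm-poor ones (3.03 ± 0.74). These genes were present in early K12 replicate 1 and nearly absent from the other two sperm-poor libraries. The insulin-like peptide gene ins-31 had 3.41 and 5.52 CPM in the sperm-rich libraries and 0, 2.00 and 0 CPM in the sperm-poor libraries, and the astacin metalloprotease gene nas-17 had 3.49 and 4.05 CPM in the sperm-rich libraries and 0, 1.08 and 0 CPM in the sperm-poor libraries. Both were chosen after their values were seen.

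In all, 40 genes averaging at least 1 CPM in the sperm-rich libraries had no read in early tnaA 3 and early K12 2, which allows up to 3 reads a library, and 40 of them had a read in early K12 1. This set was also picked after its values were seen. Its summed level was 70.1 and 108 CPM in the sperm-rich libraries, against 0, 34.5 and 0 CPM in tnaA 3, K12 1 and K12 2. K12 3 exceeded tnaA 2 by 1.54 times in this set, whereas for the MSP genes K12 3 had 0.864 times the level of tnaA 2. Early K12 1 held 38.7% of the sperm-rich mean of this set and 30.3% of that of the MSP genes. The values of 0 in tnaA 3 and K12 2, and with them the place of K12 1 among the sperm-poor libraries, were fixed by the choice of the set.

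Some lectin genes were among the higher genes. C-type lectin genes code for secreted or membrane proteins with a carbohydrate-binding fold. Of 129 tested, 23 were counted as higher and 1 as lower, against 4.89 and 0.919% of all genes tested. The median over the class was 0.00. Without a minimum fold, 35 of the 129 were higher without overlap and 27 lower, against 8.81 and 17.8% of all genes tested. All 249 lectin genes summed to 4806 and 4776 CPM in the sperm-rich libraries and 5216, 5282 and 4975 CPM in the sperm-poor ones. Of the 23, 8 belonged to the 40 genes without a read in early tnaA 3 and early K12 2. The summed level of these 23 was 43.5 and 60.2 CPM in the sperm-rich libraries and 3.10, 19.6 and 2.96 CPM in the sperm-poor libraries, highest among the sperm-poor in K12 1. Over all 740 higher genes, early K12 1 exceeded both other sperm-poor libraries for 489, early tnaA 3 for 146 and early K12 2 for 76. Over all genes tested these shares were near even, at 32.7, 35.4 and 31.1%.

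The difference was present on each bacterial strain taken alone. Between the tnaA libraries (replicate 2 over replicate 3) the 740 higher genes had a median log2 difference of 2.47, and between the K12 libraries (replicate 3 over replicates 1 and 2) of 2.17. These differences share no library, but both sets were chosen on the same transcripts. Across 11960 genes averaging at least 1 CPM in the early libraries, the correlation of the 2 log2 differences was 0.55, and it was -0.01 across the 11698 of them that were not counted. Genes are not independent replicates, and the counted genes were picked for moving in both strains.

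**Figure D3:**
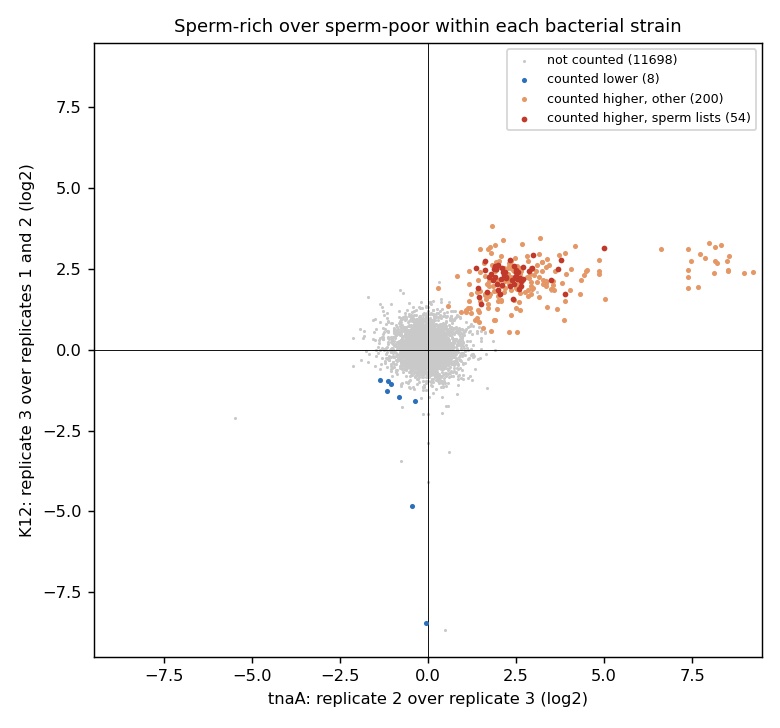
Log2 difference between the sperm-rich and sperm-poor libraries on tnaA bacteria (horizontal) against that on K12 bacteria (vertical), 1 point a gene averaging at least 1 CPM in the early libraries. Counted higher genes lie to the upper right, with the sperm lists in red at about 2 to 3 on both axes and a group without reads in tnaA 3 at far right, and the other genes form a cloud around 0 without a slope.

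Lower genes were few and faint. Of the 139, 124 had a mean under 1 CPM in the sperm-poor libraries, 15 lay between 1 and 5 CPM and 0 reached 5 CPM. For comparison, the same rule applied to the labelled groups of the same sizes counted 114 genes, 0.753%, as higher and 361, 2.39%, as lower in the tnaA than in the K12 libraries. The cuticle collagen gene col-63, the most abundant of the lower genes, had 0.233 and 0.156 CPM in the sperm-rich libraries and 0.326, 0.50 and 8.89 CPM in the sperm-poor ones (-3.53 ± 1.26), a difference that rests on early K12 2. The collagen gene col-17 had the same profile, with 2.32 CPM in K12 2 and at most 0.163 CPM in the other early libraries. The count of lower genes was 409 without early K12 3 and 263 without early tnaA 3.

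Among more abundant genes, the largest differences toward lower levels were modest. The following genes were chosen after their values were seen. The gene dod-19, a target of the insulin pathway, stood at 79.8 and 82.8 CPM in the sperm-rich libraries, against 124, 120 and 109 CPM in the sperm-poor ones (-0.54 ± 0.07). The lectin gene clec-85 had 29.1 and 29.4 CPM in the sperm-rich libraries and 46.7, 40.6 and 38.2 CPM in the sperm-poor libraries (-0.53 ± 0.12), and C17H12.8 had 77.8 and 80.9 CPM in the sperm-rich and 117, 115 and 103 CPM in the sperm-poor libraries (-0.50 ± 0.11). The aspartyl protease gene asp-17 had the largest such difference among genes of at least 5 CPM (-0.66 ± 0.19).

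Oocyte and other germline transcripts were near level. Of 33 genes for oogenesis and the eggshell, 0 were counted in either direction and the median was -0.08. With 4.89% of all genes tested counted higher and 0.919% lower, a 0 among 33 is near these shares. The chitin-binding eggshell gene cbd-1 had 3566 and 3381 CPM in the sperm-rich libraries and 3767, 3716 and 3582 CPM in the sperm-poor ones (-0.10 ± 0.07), and the MSP-signalling oocyte regulator gene oma-2 differed by -0.06 ± 0.07. Without a minimum fold, 23 of these 33 genes had lower levels in both sperm-rich libraries than in each sperm-poor one, as had 15 of 25 germline and P granule genes and 17 of 30 cell cycle genes. By that looser rule 10 of 30 meiosis genes were lower, and the shift was not particular to germline lists. Lower as well were 13 of 32 proteasome, 12 of 37 respiratory chain and ATP synthase, 8 of 23 intestine and 4 of 6 vitellogenin genes. Of 75 ribosomal protein genes 3 were lower, and of 22 muscle genes 0. By the same rule 8.81% of all genes tested were higher and 17.8% lower. Its balance turned with the scaling: of the genes without overlap, 66.9% were lower with TMM scaling, 59.3% with RLE size factors and 37.7% with library size only, when 4 oogenesis genes were on the lower side. The median over all genes was -0.04 with TMM and 0.02 with library size only.

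Markers of other cell types did not divide the sets by the counting rule, apart from faint transcripts. Of 17 somatic gonad, 22 muscle, 28 neuron, 23 intestine and 75 ribosomal protein genes, 0 were counted in either direction, and the medians lay between -0.11 and 0.00. The summed level of the 6 vitellogenin genes was 77372 and 73727 CPM in the sperm-rich libraries and 79654, 80962 and 79046 CPM in the sperm-poor ones. In each of the lists for MSP sensing (17 tested), germline and P granules (25), meiosis (30), the cell cycle (30), the proteasome (32), heat shock (11) and vitellogenins (6), 0 genes were counted, as for swm-1, the 1 tested sperm activation gene. Counted as higher and lower were 2 and 1 of 42 zygotic genes of early embryos, 1 and 4 of 105 col collagens, 0 and 1 of 5 adult cuticle collagens, 1 and 2 of 31 histone genes, 0 and 1 of 65 cytochrome P450 genes and 2 and 0 of 59 UDP-glucuronosyltransferase genes, against 4.89 and 0.919% of all genes tested. In the list of male neurons, tail and seminal fluid, 2 of 9 tested genes were counted as higher and 1 as lower, all with at most 1.01 CPM in an early library. The list summed to 4.42 and 4.75 CPM in the sperm-rich libraries and to 3.18, 2.42 and 2.80 CPM in the sperm-poor ones, against 15.6 to 19.8 CPM in the late libraries. The seminal fluid protease gene try-5 had 0.698 and 0.623 CPM in the sperm-rich libraries and 0.489, 0.333 and 0.320 CPM in the sperm-poor libraries. The part of males or mating in the split was not tested.

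Moulting and larval cuticle genes varied among the early libraries in another pattern. The protease inhibitor gene mlt-11, needed for moulting, had 9.53 and 40.2 CPM in the sperm-rich libraries (tnaA 2, then K12 3) and 12.2, 13.7 and 27.6 CPM in the sperm-poor ones (tnaA 3, K12 1, K12 2). The extracellular matrix gene noah-1 had 15.0 and 47.5 CPM in the sperm-rich libraries and 17, 18.5 and 37.6 CPM in the sperm-poor libraries. Each was high in 1 library of either set, K12 3 and K12 2, so the sets overlapped. Of 32 tested members of the list, 0 were counted in either direction and the median was 0.33, with -0.08 on tnaA and 0.53 on K12 bacteria. With 4.89% of all genes tested counted higher and 0.919% lower, a 0 among 32 is no result about the list.

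The counted genes were not spread evenly over the chromosomes. Chromosomes were taken by gene name from RefSeq's table for WBcel235, which held 738 of the 740 higher genes. The X chromosome carried 21 of them, 2.85%, against 14.6% of all genes tested, and chromosome IV carried 204, 27.6%, against 16%. Among lower genes the X share was 19.7%. By Ensembl 115 models, higher protein-coding genes had a median transcript length of 1111 bases and 5 exons, against 1361 bases and 6 exons for all protein-coding genes tested, and 31.2% of the higher genes had at most 3 exons, against 22% of all.

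Late libraries, which took no part in the split, allowed a test of the counted genes. Depth and the share of reads outside genes divided the genotypes compared. In units of 1e6 reads, gene counts were 10.4 and 11.9 in late ahr-1 and 15.3 and 14.5 in late N2 on K12. Reads outside genes made up 13.8 and 11.6% in late ahr-1, against 8.56 and 8.27% in late N2 on K12. The part of either in the calls was not tested. In late worms the ahr-1 transcript itself, the gene mutated in ahr-1(ia3), stood at 1.59 and 1.03 CPM in ahr-1 worms and 3.20 and 2.12 CPM in N2 on K12, a log2 fold change of -1.03 (adjusted p = 0.0767, edgeR quasi-likelihood test with Benjamini-Hochberg adjustment). Between late ahr-1 and late N2 worms on K12, 2172 genes, 14.4%, were called higher and 2004, 13.2%, lower at an adjusted p under 0.05. Of the 740 genes counted as higher in the sperm-rich early libraries, 387 were called higher in late ahr-1 worms, 52.3% of the counted genes and 17.8% of the genes called higher, and 3 were called lower. Of the 139 lower genes, 5 were called higher and 5 lower. Without late K12 replicate 1, 1157 genes were called higher and 1009 lower, and 249 genes were both counted in the split and called higher. Without late ahr-1 replicate 1, 1269 genes were called lower, and DESeq2 called 1113 genes higher, with 246 both counted and called.

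**Figure D4:**
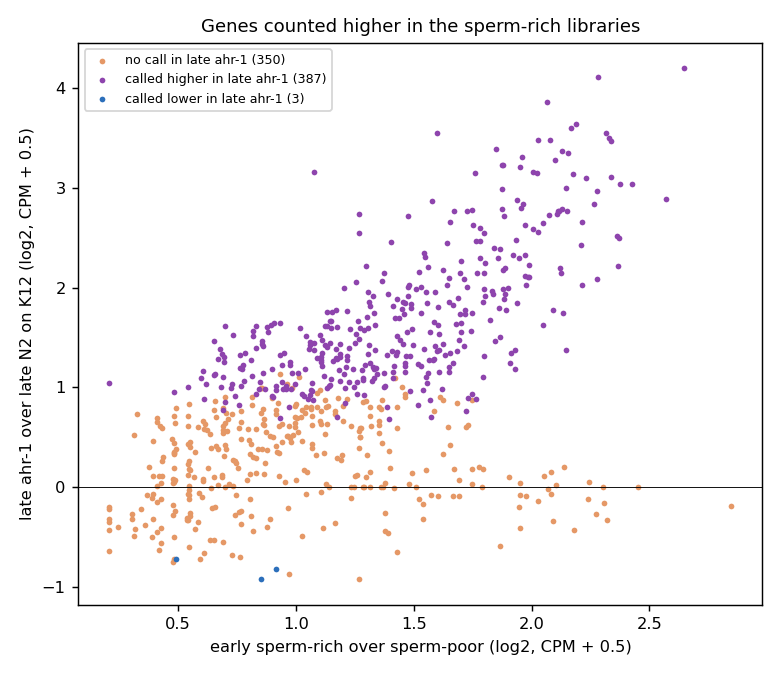
The 740 genes counted as higher in the sperm-rich early libraries, with the difference between sperm-rich and sperm-poor libraries (horizontal) against the difference between late ahr-1 and late N2 worms on K12 (vertical), both as log2 ratios of mean CPM plus 0.5. The 387 genes called higher in late ahr-1 worms form a rising band, and others stay near 0 on the vertical axis up to the right edge.

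Most sperm list genes were higher in late ahr-1 than in late N2 worms on K12. Of 80 tested, 58 were called higher and 2 lower, against 14.4 and 13.2% of all genes tested. All 28 tested MSP genes were called higher there, with a median log2 fold change of 5.6, or 5.08 with the 7 genes that had no read in late N2 on K12 at their lower bound. The summed MSP level was 78.1 and 84.8 CPM in late ahr-1 worms, against 1.60 and 1.82 CPM in late N2 on K12. Late N2 worms on tnaA bacteria had 12.5 and 3.29 CPM. For ssq-4 the levels were 10.1 and 10.5 CPM in late ahr-1 worms and 0.0572 and 0.121 CPM in late N2 on K12 (adjusted p = 3.17e-05, edgeR), and for alg-4 7.43 and 6.57 CPM in late ahr-1 worms and 0.400 and 0.424 CPM in late N2 on K12 (4.06 ± 0.37, adjusted p = 1.34e-05, edgeR). Some sperm lists were mixed. Of 10 genes for sperm organelles 2 were called higher and 1 lower, and of 5 for sperm-egg interaction and paternal factors 1 was called higher. Of 6 kinases and phosphatases 2 were called higher, and of 5 Argonaute and translation genes 2 were called higher and 1 lower. The gene fer-1 was not called (0.11 ± 0.15, adjusted p = 0.625, edgeR).

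Named genes of the second group stayed near 0 in late ahr-1 worms. The levels of clec-197 were 0.167 and 0.0738 CPM in late ahr-1 worms and 0.229 and 0.121 CPM in late N2 on K12, and those of try-8 were 0.0835 and 0.222 CPM in late ahr-1 worms and 0.515 and 0.242 CPM in late N2 on K12. Neither was called (adjusted p = 0.866 and 0.616, edgeR). Of the 40 genes without a read in early tnaA 3 and early K12 2, 4 were called higher in late ahr-1 worms, a share near the 14.4% of all genes tested, and 29 were under 0.5 CPM in every late library. Of the 23 counted lectin genes 6 were called higher, against the same 14.4%, among them clec-73, with 3.17 and 3.47 CPM in late ahr-1 worms and 0.114 and 0.242 CPM in late N2 on K12 (4.17 ± 0.52, adjusted p = 9.99e-05, edgeR). At the few reads these genes had in late worms, differences of moderate size were not detectable.

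Chromosomes were compared between the 387 counted higher genes called higher in late ahr-1 worms and the other 353 counted higher genes. The 353 are not the second group: they summed to 467 and 451 CPM in late ahr-1 worms and 368 and 397 CPM in late N2 on K12, and 66 of them were under 0.5 CPM in both late ahr-1 libraries. Of the 387 genes called higher in late ahr-1 worms, 386 had a chromosome and 1 of these, 0.259%, was on X, against 20 of the 352 others with a chromosome, 5.68%. On chromosome IV the shares were 32.9 and 21.9%. These shares are descriptions, since the early values picked the genes.

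**Figure D5:**
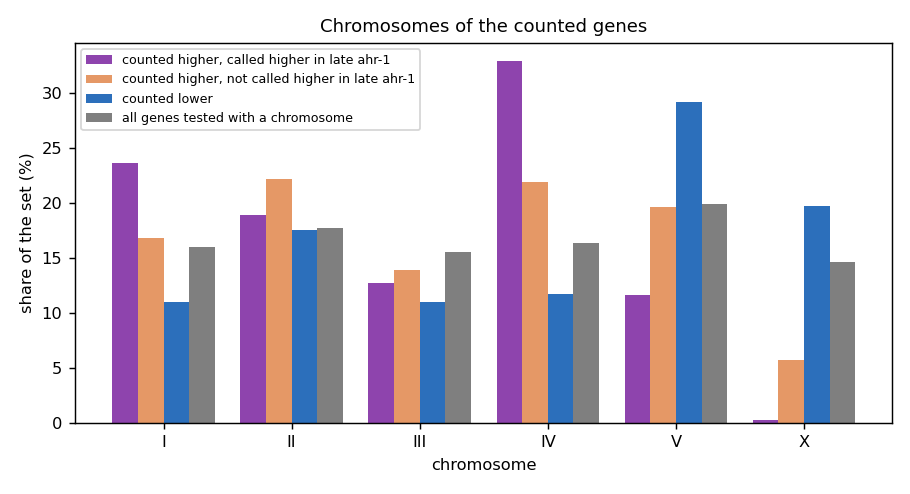
Share of each gene set on each chromosome (vertical axis, percent of the set's genes with a chromosome, from 0), for counted higher genes called higher in late ahr-1 worms, other counted higher genes, counted lower genes and all genes tested. The counted higher genes called higher in late ahr-1 worms reach 32.9% on IV and 0.259% on X, against 16 and 14.6% of all genes tested.

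Giving the split its own term raised the number of calls between bacteria in young worms in the main edgeR fit. Each strain had 1 sperm-rich library, so strain and split could be separated. With the term, 19 genes, 0.126%, were called higher and 32, 0.211%, lower on tnaA than on K12 bacteria. Without it the calls were 8, 0.0529%, and 2, 0.0132%, and all 10 were among the 51 called with the term. Of these 51 genes, 0 were counted in the split, against 4.89 and 0.919% of all genes tested counted higher and lower. A gene with both tnaA libraries above or below every K12 library cannot meet the counting rule. The 0 was thus largely fixed beforehand and is no result. With DESeq2 the term made little difference, at 36 genes higher and 50 lower with it and 42 and 46 without it. Over genes averaging at least 5 CPM the edgeR counts were 6 and 7 with the term and 6 and 3 without it. The edgeR counts with the term also depended on single libraries. Leaving out 1 library gave 4 to 37 genes higher and 3 to 232 lower, and moved the higher count by over 1.5 times for 9 of the 11 libraries (all but late K12 1 and 3) and the lower count for 7 (all but the late K12 and late ahr-1 libraries). The counts were 4 and 3 without early tnaA 3, and 30 and 232 without early K12 1.

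Among genes chosen after their values were seen, the collagen gene col-129 had 248 and 199 CPM on tnaA bacteria (replicates 2 and 3) and 88.9, 112 and 88.9 CPM on K12 bacteria (replicates 1 to 3), with a log2 fold change of 1.20 ± 0.10 (adjusted p = 0.000107, edgeR). The ABC transporter gene pgp-1 had 4.73 and 3.75 CPM on tnaA and 13.2, 11.4 and 9.80 CPM on K12 bacteria (-1.40 ± 0.17, adjusted p = 0.0032, edgeR). In both genes the bacterial groups did not overlap, and the split differences were 0.06 ± 0.10 for col-129 and -0.15 ± 0.16 for pgp-1. The larval cuticle genes cut-3 (-3.24 ± 0.45, adjusted p = 0.0104, edgeR) and sqt-3 (-1.74 ± 0.29, adjusted p = 0.028, edgeR) were called lower on tnaA, and on K12 both were highest in replicates 3 and 2. Of the 80 tested sperm list genes, 0 were called between the bacteria with or without the term. Over all genes tested, 0.126% were called higher and 0.211% lower with the term, and 0.0529 and 0.0132% without it. A count of 0 among 80 is near these shares and is no result about sperm genes. At an unadjusted p under 0.05 by edgeR the sperm list counts were 2 with the term and 0 without it.

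Most genes tested were called between late and early N2 worms. In late N2 against early N2 worms, taken at the sperm-poor level and averaged over both strains, 5727 genes, 37.8%, were called higher and 5923, 39.1%, lower. This comparison shares the early libraries with the split, so the members' values are given side by side. For ssq-2 the level was 0.172 and 0.0605 CPM in late N2 on K12, against 32 and 26.8 CPM in the early sperm-rich libraries and 7.1, 8.16 and 3.20 CPM in the early sperm-poor ones. The zygotic gene sdz-35, counted as lower, had 11.2 CPM in each late N2 library on K12, against 0.155 and 0.0778 CPM in the early sperm-rich libraries and 0.734, 0.333 and 0.240 CPM in the early sperm-poor libraries. With library size only, 8549 genes were called higher and 3324 lower in late worms, so the balance of the directions depended on the scaling. The TMM factors were 0.820 to 0.877 in the early libraries and 1.14 to 1.17 in the late N2 ones. Over genes averaging at least 5 CPM the count of higher genes was 3786.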

How the data were processed

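Whole-animal RNA-seq of 11 libraries in 5 labelled groups was used. The authors deposited raw counts of reads by gene in a file per library. The submitters' processing notes name Trim Galore, STAR, HTSeq 0.6.1p2 and DESeq2. No source used here gives the genome build, the annotation or whether counting used strand, and without strand a gene and an overlapping antisense partner share reads. The lines for reads in no gene (6.14 to 14.8%) and ambiguous reads (0.267 to 0.296%) stayed out of library sizes. A pair of authors' tables on late worms was not used.

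Counts were fitted in R 4.3.3 with edgeR 4.0.16 (TMM scaling, filterByExpr by group with a minimum count of 10, 15133 of 42048 genes) in 1 quasi-likelihood model over all libraries, with a mean per group and a term for the sperm-rich libraries, with 5 residual degrees of freedom left. The early difference is thereby taken within bacterial strain. The F test is two-sided, with Benjamini-Hochberg adjustment over all genes. The SE is the size of the log2 change over the square root of F. The script was tested on simulated data. The depth of 8.31 to 15.3 (gene counts in units of 1e6 reads) sets a floor of 3 counts for a count of 0, and such limits cover counting error only.

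The members and the 33 gene lists were chosen with earlier results of these data known. Named genes were up to 15 of the largest counted rises and falls outside the sperm lists with a mean of at least 5 CPM and a symbol. No counted fall reached 5 CPM, so no fall entered by this part of the rule. Added were up to 4 counted members of each sperm list and up to 3 of every other list (or the 2 most abundant). Counted genes among the calls of the tested comparisons were named too. Genes said to be chosen after their values were seen came from outside the rule. The text gives part of these. Gene names from the lists were matched to the counts, and 22 were not found. Alternatives were other scalings, filters and fold limits, DESeq2 1.42.0, fits without the strain term or of the compared libraries alone, a replicate block, and leaving out each library.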

Additional observations from a re-analysis of the deposited data

How the results depend on the processing

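No counted named gene, and no median of a list in which at least 50% of tested members were counted, changed sign under the alternatives run. Both were picked for differences of at least 2-fold without overlap, so a stable sign was largely fixed by the choice. With the compared libraries alone 86 named genes had a value, against 106 with DESeq2. Counted named genes missed the counting rule in 31 recomputed values and met it in the others, and medians near 0 of other lists did change sign with the scaling. The higher and lower counts of the split were 1220 and 313 with no low-count filter, 19 and 7 with a mean of at least 5 CPM, 1333 and 2695 with no minimum fold, and 486 and 39 for at least 4-fold; the lower count was 15 with the compared libraries alone. Leaving out each library gave 840 to 1276 higher and 161 to 409 lower genes; leaving out a library of a pair also lowers the filter, which then asks for reads in fewer libraries. Genes both counted higher in the split and called higher in late ahr-1 worms numbered 10 with a mean of at least 5 CPM, 246 with DESeq2 and 249 to 414 without single libraries.

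For tnaA against K12 with the split term, counts higher and lower were 10 and 21 with library size only, 194 and 313 with no low-count filter, 6 and 7 with a mean of at least 5 CPM, 36 and 50 with DESeq2, and 8 and 9 with the replicate block. The lower count was 11 with the compared libraries alone, and single libraries left out gave 4 to 37 and 3 to 232. Without the split term they were 5 and 1 with library size only, 171 and 274 with no low-count filter, 42 and 46 with DESeq2, 5 and 1 with the replicate block, 0 and 0 with the compared libraries alone, and 4 to 35 and 0 to 187 without single libraries. For late ahr-1 the higher count was 1113 with DESeq2, and 1157 to 2220 higher and 1009 to 2036 lower genes were called without single libraries. For ageing the higher count was 3786 with a mean of at least 5 CPM and the lower count 3324 with library size only; single libraries left out gave 4525 to 5881 and 5373 to 6055. The causes of these moves were not tested.

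Whether replicate numbers mark paired samples was not tested. The deviations of same-numbered libraries had correlations of -0.55 between early tnaA and early K12 and -0.000446 between late ahr-1 and late K12, and crossing the early numbers gives the split itself. The early value is thus tied to the chosen sets, and the late value compares different genotypes. With the replicate number as a block the split counted 756 higher and 142 lower genes. With 2 or 3 libraries a set and low levels, small differences were not detectable.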

Other observations

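Some genes counted as higher in the sperm-rich libraries lay next to each other; how many neighbours other genes would have was not tested. In RefSeq's gene order for WBcel235, 169 of 720 protein-coding higher genes had a neighbouring protein-coding gene that was also counted, and 17 runs held 3 or more neighbours. A run on chromosome I joined nspd-1 with the sperm chromatin gene spch-3 and ssp-16, and one on chromosome IV joined msp-55, msp-57 and msp-53. Reads shared between neighbouring copies of a family cannot be told apart from transcripts of each.

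Early K12 replicate 2 alone held transcripts of some cuticle genes. The collagen genes dpy-5 and dpy-13 stood at 5.53 and 7.37 CPM in that library, and at no more than 0.233 CPM in any other early library. Early tnaA replicate 2 alone had 4.81 CPM of col-149, against 1.09 CPM in the other sperm-rich library and at most 0.979 CPM in the sperm-poor ones.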
